A study of Mus musculus with 2 samples.

Results

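Matrix proteoglycans, elastic microfibril proteins, matrix glycoproteins and the enzymes that crosslink them were followed in the colon of mice fed psyllium, a viscous seed-husk fibre. The list held 45 genes, and 42 of them had a probe set whose platform annotation names that gene alone, out of 22180 genes so measured. Fbn1, Efemp2 and Loxl2 had no such probe set among those used and are not part of the counts. The genes were assigned by known role to 4 classes: 9 proteoglycans, 15 elastic microfibril proteins, 14 matricellular and other glycoproteins, and 4 crosslinking or processing genes.

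Both diets were given to male ICR mice, an outbred stock, 7 weeks old and recorded as healthy. The control array carried total RNA from colons of mice on a diet without psyllium. The psyllium array carried that of mice given 10% psyllium in the diet. Both diets are recorded as given for 5 days. Each diet has 1 array, so no difference has a replicate check, and no error or p-value can be given. The number of mice behind an array, the stretch of colon and the treatment of its muscle layers are not given in the labels. In RNA from whole tissue, more cells of a type and more RNA per cell cannot be told apart.

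The connective tissue of the colon wall is made mainly by fibroblasts and smooth muscle cells. Small leucine-rich proteoglycans such as decorin bind collagen fibrils and set their spacing, whereas versican binds hyaluronan and loosens the matrix. Microfibrils of fibrillin serve as a scaffold on which elastin is laid down with the help of fibulins, and lysyl oxidases then crosslink elastin and collagen. Matricellular proteins, among them tenascin-C, periostin and the thrombospondins, act on cells more than as structural parts.

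Most of these genes had higher intensities on the psyllium array. Differences are given on the log2 scale as psyllium minus control. Of the 42 genes, 25 (59.5%) were higher by 1.5-fold or more and 0 were lower by as much. Over all 22180 genes, 3.42% lay past 1.5-fold in the higher direction and 2.8% in the lower one. At 2-fold the counts were 15 higher and 0 lower, beside 0.676% and 0.451% of all genes. The median difference of the 42 genes was 0.75, against -0.0025 for all genes, and 39 of the 42 differences were positive. Of the 221 genes with the highest differences, the top 1%, 16 belonged to this list. Lum and Aspn, bright on both arrays, were at ranks 16 and 19. The ranks of Cilp (2), Mfap5 (8) and Vcan (12) rest on dim control values, and with a pseudocount of 16 the difference of Lum, 2.02, lay above those of Mfap5, 1.92, and Vcan, 1.88.

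Brightness limits how far a fold can be read. An intensity of 69.5, the median over genes of the brighter of the pair of values, was taken as the line for a dim value. On this scale 28 of the 42 genes were bright on both arrays, 7 were dim on the control array only, and 7 were dim on both. All 7 genes that were dim only on the control array (Vcan, Mfap4, Mfap5, Eln, Cilp, Lox and Loxl1) were past 1.5-fold; such a gene passes the line only through its higher value, and the sizes of these folds rest on a dim value. The other 18 genes past 1.5-fold were bright on both arrays. The 7 genes dim on both arrays (Fmod, Omd, Fbn2, Mfap2, Ltbp2, Emilin2 and Comp) had differences from -0.30 to 0.34, and little can be read from them.

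**Figure D1:**
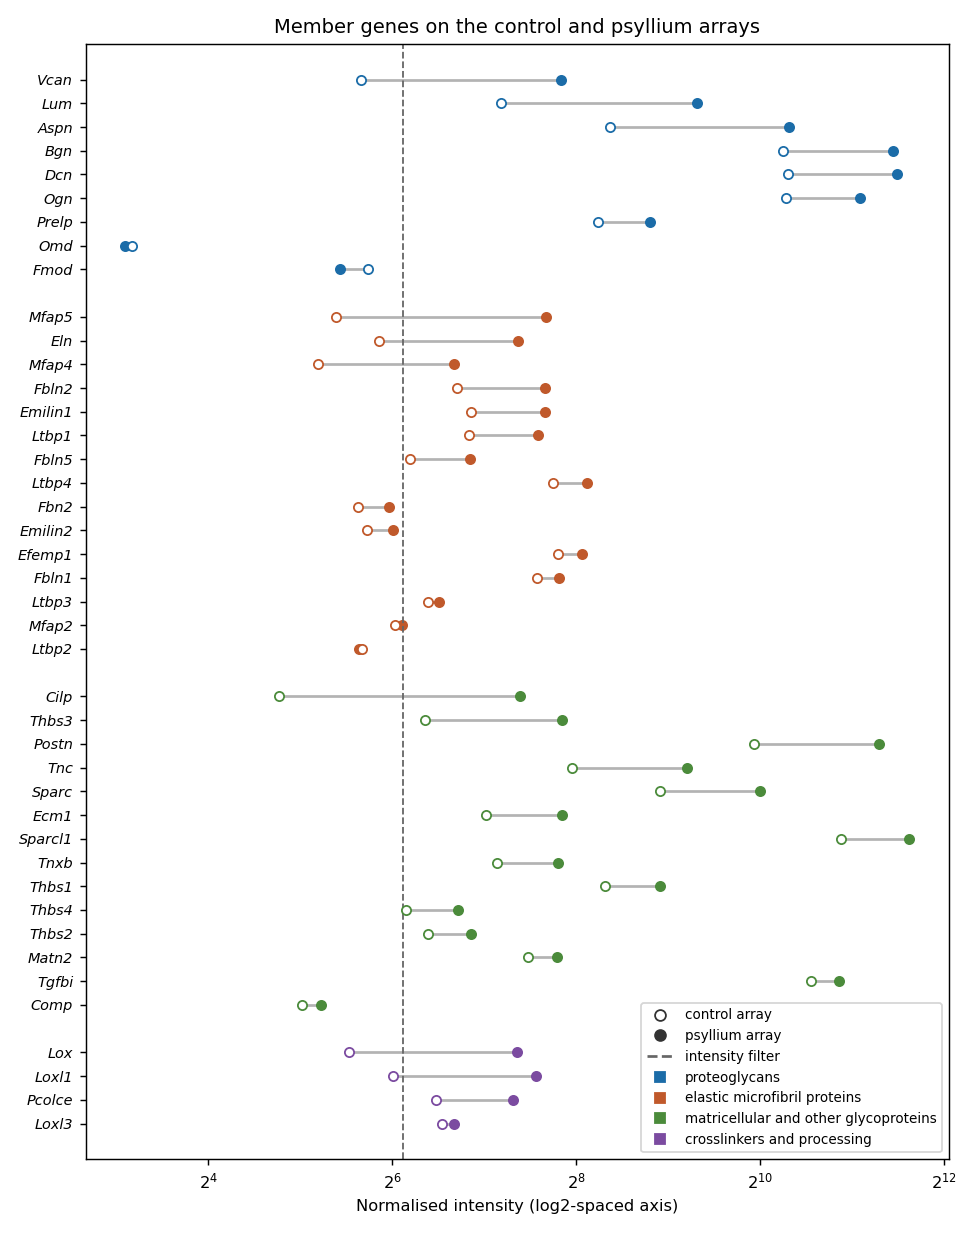
Normalised intensity on a log2-spaced axis for each of the 42 genes, by class and in order of difference. Open circles are the control array, filled circles the psyllium array (1 array each), and the dashed line is the intensity of 69.5. The filled circle lies to the right of the open one for 39 genes, and the longest lines are those of Cilp, Mfap5, Vcan and Lum.

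Among the proteoglycans 6 of 9 were at least 1.5-fold higher, with a median difference of 1.18. Versican, encoded by Vcan, is the large hyaluronan-binding proteoglycan of loose connective tissue, and its intensity of 50.4 on the control array stood against 229 on the psyllium array, a difference of 2.18. Decorin, Dcn, which coats collagen fibrils, read 1267 on the control and 2881 on the psyllium array (2.27-fold). Its close relative biglycan, Bgn, read 1222 and 2802 in that order (2.29-fold). Asporin, Aspn, of the same subfamily, read 331 and 1274, a difference of 1.94. The decorin subfamily was thus higher in each of its 3 listed genes, all bright on both arrays.

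The lumican subfamily was mixed. Lumican, Lum, a keratan sulfate proteoglycan that regulates fibril diameter, read 145 on the control and 639 on the psyllium array, a difference of 2.14. Prelp, which anchors basement membranes to connective tissue, read 303 and 448, a difference of 0.56 that lies just short of 1.5-fold. Fibromodulin, Fmod, was dim on both arrays at 53.4 and 43.3, and osteomodulin, Omd, at 8.97 and 8.53. Osteoglycin, Ogn, of a further subfamily, read 1248 and 2179 (1.75-fold).

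A gene with several probe sets was read from the brighter one. The other Bgn probe set gave 200 on the control and 376 on the psyllium array, a difference of 0.91 and so in the same direction. That of Prelp was dim on both arrays at 59.7 and 67.4 (0.18), and that of Fmod read 36.3 on both. The remaining 39 genes had 1 probe set each. Probe sets of a whole-transcript array cover a gene as a unit, so splice forms of versican or tenascin-C are not separated.

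Several of the proteoglycan genes lie side by side in the mouse genome, in the order of protein-coding genes in the RefSeq table. Ecm2, Aspn, Omd and Ogn form a row, and their differences were 0.57, 1.94, -0.07 and 0.80. Omd was dim on both arrays, so its place in the row has no readable difference. Dcn and Lum were followed by Kera and Epyc, dim genes with differences of 0.00 and 0.65. Optc, Prelp and Fmod are also neighbours, and of these Prelp was the bright one. Beside Vcan lies Hapln1, the link protein that ties such proteoglycans to hyaluronan, which went the opposite way, from 84.4 on the control to 46.5 on the psyllium array (1.81-fold lower). That psyllium value is dim.

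**Figure D2:**
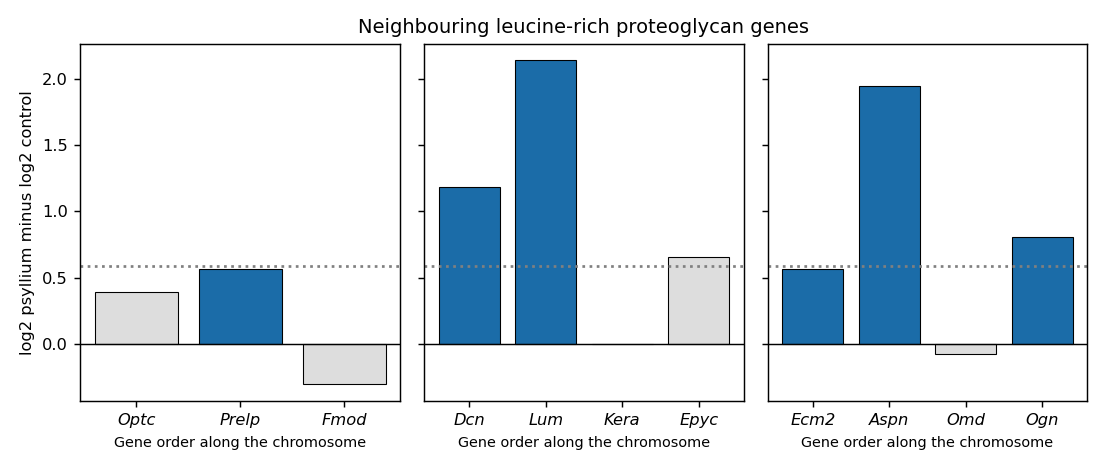
Difference (log2 psyllium minus log2 control, 1 array per diet) of leucine-rich proteoglycan genes that are neighbours, drawn in gene order. Blue bars are genes past the intensity of 69.5 on at least 1 array, grey bars genes dim on both, and the dotted line marks 1.5-fold higher. Lum and Aspn have the tallest bars, while the Omd bar between Aspn and Ogn lies just below 0 and that of Kera is at 0.

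The sequences before the start sites of Vcan and of the neighbours Aspn, Omd and Ogn are shown. These genes include Vcan and Aspn, which had large differences, and Omd, a neighbour that stayed dim. Other proteoglycans with large differences, such as Lum (2.14), are not shown. The sequences come from RefSeq, assembly GRCm38.p6, and each covers the 250 bases before the start, 5′ to 3′ on the gene's strand. Capitals mark matches, on either strand, to the GC box GGGCGG in Vcan, to the TATA box letters TATAAA in Aspn and Ogn, and to the TEAD motif GGAATG in Ogn.
Vcan, chr13:89742513-89742762, minus strand: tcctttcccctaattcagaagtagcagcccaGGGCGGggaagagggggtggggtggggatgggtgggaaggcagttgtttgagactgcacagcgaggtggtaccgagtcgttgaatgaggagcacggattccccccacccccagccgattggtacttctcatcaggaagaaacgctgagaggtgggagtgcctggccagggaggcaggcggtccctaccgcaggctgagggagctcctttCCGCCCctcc
Aspn, chr13:49544193-49544442, plus strand: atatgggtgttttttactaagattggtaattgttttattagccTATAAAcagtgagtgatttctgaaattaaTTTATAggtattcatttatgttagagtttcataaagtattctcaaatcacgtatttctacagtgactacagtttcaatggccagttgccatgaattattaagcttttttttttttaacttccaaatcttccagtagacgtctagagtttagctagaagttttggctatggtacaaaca
Omd, chr13:49582212-49582461, plus strand: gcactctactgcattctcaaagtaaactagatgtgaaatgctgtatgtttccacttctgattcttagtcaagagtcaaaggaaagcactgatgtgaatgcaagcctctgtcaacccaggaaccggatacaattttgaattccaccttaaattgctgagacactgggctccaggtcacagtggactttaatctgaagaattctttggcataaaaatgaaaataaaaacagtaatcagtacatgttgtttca
Ogn, chr13:49607765-49608014, plus strand: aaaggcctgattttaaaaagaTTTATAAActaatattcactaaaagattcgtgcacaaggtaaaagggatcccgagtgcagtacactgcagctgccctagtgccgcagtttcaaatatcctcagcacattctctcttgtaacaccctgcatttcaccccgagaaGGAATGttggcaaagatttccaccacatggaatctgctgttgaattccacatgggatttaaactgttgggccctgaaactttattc

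The Vcan sequence held 2 GC boxes, the nearer one beginning 10 bases before the start. In Aspn the 2 TATAAA matches began 207 and 178 bases before the start, and in Ogn 2 overlapping ones began 229 and 227 bases before it. The TEAD match of Ogn began 86 bases before the start. No match was found in Omd.

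Windows of 300 bases, with 50 bases after the start included, were searched for the 29 measured genes with a RefSeq window used here, 38 windows in all. Windows on chr18 were left out for the listed genes, but not from the set of all windows set beside them. TATAAA was found in 7 of these 38 windows (18.4%) and in 13.6% of all 32851 windows of that length. Its genes were Aspn, Ecm1, Ogn, Postn, Thbs2 and Tnc. GGGCGG was found in 19 of the 38 windows (against 35.7% of all), GGAATG in 4 (10.5%, against 14.7%) and the AP-1 letters TGANTCA in 4 (10.5%, against 7.81%). The SRF CArG box, searched as its consensus, was in 0 of 38 windows and in 1.63% of all. Both strands were searched, and a match is a run of letters, not a shown binding site.

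Of the elastic microfibril proteins 7 of 15 were at least 1.5-fold higher, with a median difference of 0.37. This median includes 4 genes dim on both arrays and was 0.75 over the 11 genes past the intensity line, a filter that favours genes high on 1 array. Tropoelastin, Eln, the rubber-like core of the elastic fibre, read 58.1 on the control and 165 on the psyllium array, a difference of 1.51. Mfap5, a microfibril-associated glycoprotein that binds fibrillin, read 42.0 and 204, a difference of 2.28. Mfap4, which binds elastin and fibrillin, read 36.5 and 102 (1.48). For these 3 genes the control value is dim. Mfap2, the close relative of Mfap5, read 65.4 and 68.8 and was dim on both arrays. The fibrillin Fbn2 was also dim, at 49.3 and 62.5.

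Fibulins link elastin to the microfibril and to cells. Fbln2 read 104 on the control and 203 on the psyllium array (1.95-fold). Fbln5, which is needed for elastic fibre assembly, read 73.2 and 115 (1.57-fold). Fbln1 differed by 0.23 (191 and 225) and Efemp1 by 0.26 (224 and 267), both under 1.5-fold although bright on both arrays. Emilin1, found where elastin meets the microfibril, read 116 and 202 (1.74-fold). Its relative Emilin2 read 52.8 and 64.5.

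Latent TGF-beta binding proteins hold the growth factor in the matrix by tying it to microfibrils. Ltbp1 read 114 on the control and 192 on the psyllium array (1.68-fold). Ltbp4 differed by 0.37 (215 and 277) and Ltbp3 by 0.12 (83.8 and 91.3). Ltbp2, which does not bind the latent growth factor, read 51.0 and 49.9 and was dim. In this family 1 of 4 genes was therefore past 1.5-fold.

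Of the matricellular and other glycoproteins 9 of 14 were at least 1.5-fold higher, all 14 differences were positive, and the median was 0.71. Cilp, a cartilage and connective tissue glycoprotein that binds TGF-beta, had the largest difference of the 42 genes, 27.2 on the control against 168 on the psyllium array (2.63), from a dim control value. Periostin, Postn, which fibroblasts secrete in remodelling tissue, read 983 and 2517 (2.56-fold). Tenascin-C, Tnc, an anti-adhesive protein of wounded and remodelling tissue, read 248 and 591 (2.39-fold). Tnxb, the tenascin of mature collagen-rich tissue, read 141 and 223 (1.58-fold). Both tenascins were bright on both arrays.

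The collagen-binding protein Sparc read 483 on the control and 1024 on the psyllium array (2.12-fold). Its relative Sparcl1 read 1883 and 3163 (1.68-fold). Ecm1, a secreted protein that binds several matrix components, read 129 and 231 (1.78-fold). The integrin-binding Tgfbi, at 1504 and 1867, differed by 0.31, and the filament-forming matrilin Matn2, at 178 and 222, by 0.32. These last genes were bright on both arrays and under 1.5-fold.

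Thrombospondins bind matrix, cells and growth factors, and the first of them, Thbs1, can activate latent TGF-beta. Thbs3 read 81.8 on the control and 229 on the psyllium array, a difference of 1.49 that was the highest in the family. Thbs1 read 317 and 481 (1.51-fold), just past the 1.5-fold line, and Thbs4 read 71.2 and 105 (1.48-fold), just short of it. Thbs2 read 83.9 and 116 (0.46). Comp, also a thrombospondin, was dim on both arrays at 32.5 and 37.4. No error is known for any of these values, so the order of Thbs1, Thbs4 and Thbs2 cannot be read.

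Among crosslinking and processing genes 3 of 4 were at least 1.5-fold higher, with a median of 1.20. Lysyl oxidase, Lox, which oxidises lysines of collagen and elastin so that they crosslink, read 46.1 on the control and 164 on the psyllium array (1.83). Loxl1, the family member tied to elastic fibres, read 64.4 and 189 (1.56). Both control values are dim. Loxl3 read 93.0 and 102, a difference of 0.13. Pcolce, which enhances the removal of the procollagen C-propeptide, read 89.1 and 160 (1.79-fold).

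Set side by side, the class medians over all measured genes were 1.20 for crosslinkers and processing, 1.18 for proteoglycans, 0.71 for glycoproteins and 0.37 for elastic microfibril proteins. The ranges overlap, from 0.13 to 1.83, -0.30 to 2.18, 0.20 to 2.63 and -0.03 to 2.28 in the same order. The order of crosslinkers and proteoglycans depended on the processing. Their medians were 1.05 and 1.17 with a pseudocount of 16, and 1.21 and 1.26 with a lowess trend removed. Under the other alternatives the crosslinker median stayed the higher. With 1 array per diet the differences between classes cannot be tested.

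**Figure D3:**
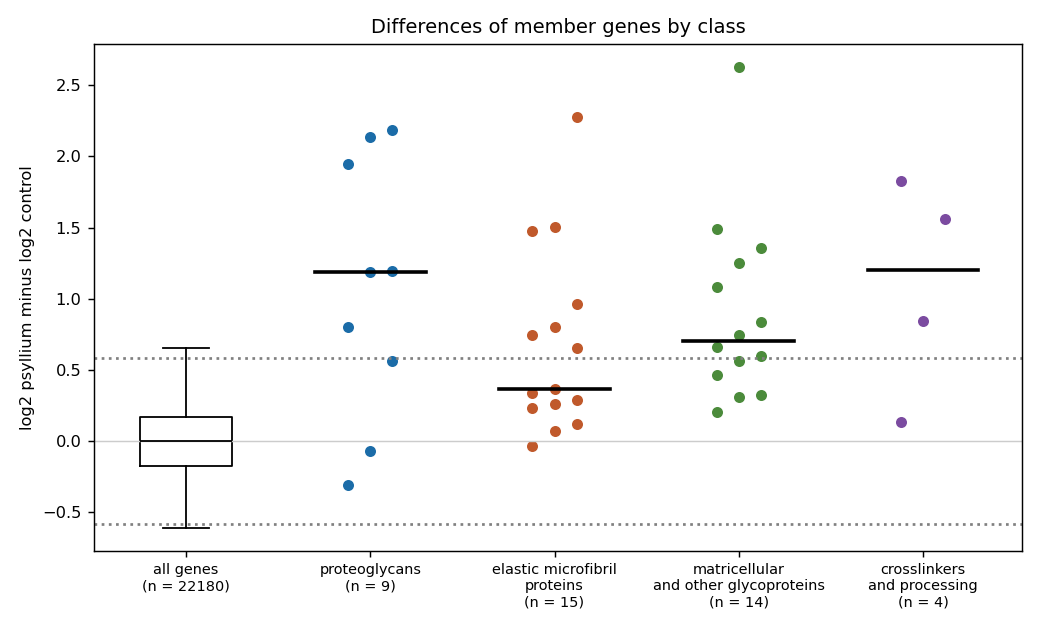
Difference (log2 psyllium minus log2 control) of each of the 42 genes by class, with class medians as black bars. The box shows the quartiles and median of all 22180 genes, its whiskers the central 95% of genes, and dotted lines mark 1.5-fold either way. The medians are 1.18, 0.37, 0.71 and 1.20 from left to right, and the lowest genes lie at -0.30, -0.03, 0.20 and 0.13.

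**Figure D4:**
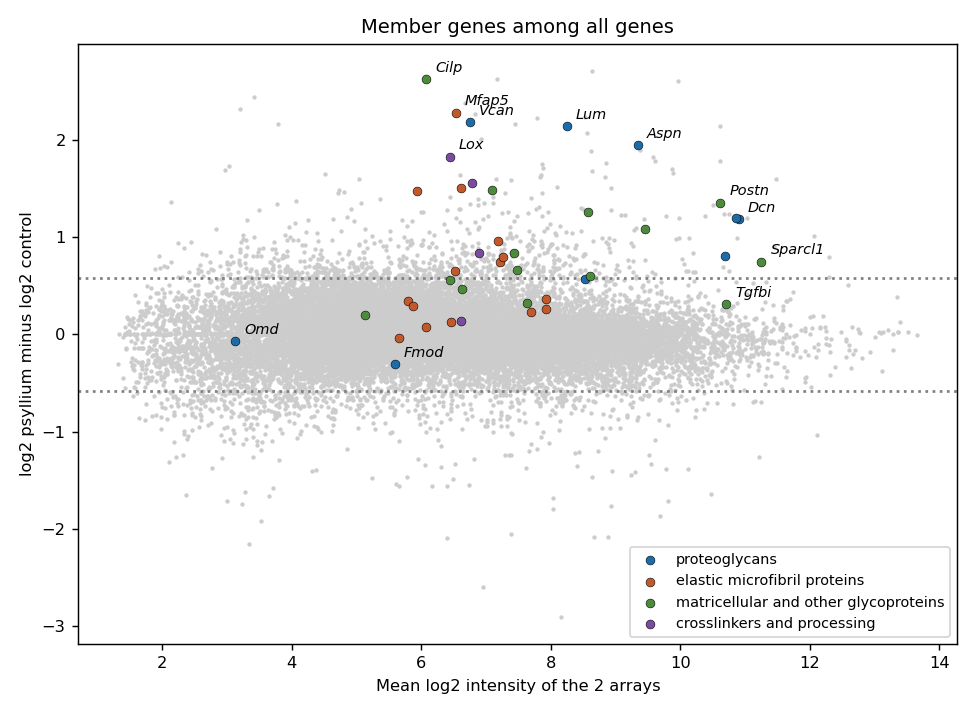
Difference against the mean log2 intensity of the 2 arrays for all 22180 genes (grey) and the 42 genes (coloured by class), with dotted lines at 1.5-fold. Genes past 1.5-fold are found along the brightness range, from Mfap4 and Cilp on the dim side to Dcn, Postn and Sparcl1 on the bright side.

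Genes of the same pathways outside the list were followed in 6 groups of matrix relatives. Of 100 measured, 16 were at least 1.5-fold higher and 1 lower, with a median of 0.12. The groups share some genes with each other or with marker lists, 6 in all.

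Sugar chain, hyaluronan and other proteoglycan genes were counted in the same way. Of 20 genes for chondroitin and dermatan sulfate chains 1 was at least 1.5-fold higher and 0 lower, with a median of 0.05. The 1 was Dse, the epimerase that converts chondroitin to dermatan sulfate, at 55.8 on the control and 97.4 on the psyllium array (1.74-fold), from a dim control value. Of 11 hyaluronan genes 4 were higher and 0 lower, with a median of 0.20. The synthase Has2 read 40.9, a dim value, and 80.4, the receptor Cd44 450.0 and 848 (1.88-fold), and the lymphatic receptor Lyve1 245 and 513 (2.09-fold). The scavenger receptor Stab1 differed by 0.65. Of 19 other leucine-rich and hyaluronan-binding proteoglycans 1 was higher and 1 lower, with a median of 0.04. Here 14 of the 19 were dim on both arrays, the higher one was the dim Epyc, and the lower one Hapln1.

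Among 13 ADAMTS genes that cleave versican or attach to microfibrils, 3 were at least 1.5-fold higher and 0 lower, with a median of 0.30. Adamts9, a versican-cleaving protease, read 67.0 on the control and 102 on the psyllium array, and Adamts17 51.5 and 81.6, both from dim control values. Adamts5, dim on both arrays, differed by 0.59. Of 20 other elastic fibre, crosslinking and processing genes 5 were higher and 0 lower, with a median of 0.31. Plod2, the lysyl hydroxylase that prepares collagen for stable crosslinks, read 74.2 and 187 (2.52-fold). The collagen chaperone Serpinh1 read 168 and 320.1 (1.90-fold), and Mmrn1, of the Emilin family, 211 and 360.1 (1.71-fold). The procollagen C-proteinase Bmp1 differed by 0.69 and the prolyl hydroxylase subunit P4ha2 by 0.60.

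Of 18 other matricellular glycoproteins 2 were at least 1.5-fold higher and 0 lower, with a median of 0.18. Fstl1, a Sparc-related secreted protein, read 183 on the control and 769 on the psyllium array (4.19-fold). Fndc1, a fibronectin type III domain protein, read 67.5, a dim value, and 171.

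Markers of the cells known to make matrix were read on the same arrays. All 15 smooth muscle markers had positive differences, 14 being past 1.5-fold, and a median of 1.19. Their summed intensity was 13909 on the control and 33278 on the psyllium array, a ratio of 2.39, and Actg2, Synm and Des led with 2.14, 1.88 and 1.79. Of 13 fibroblast markers outside the matrix list 3 were past 1.5-fold and 0 lower, with a median of 0.32 and sums of 2531 and 3985. The receptor Pdgfrb and the Wnt antagonist Sfrp1, both past the intensity line, differed by -0.19 and -0.09. Dpt, which encodes the matrix protein dermatopontin, read 878 on the control and 2039 on the psyllium array. Most of the rise in the fibroblast sum is that of Dpt. Col15a1, a collagen chain, read 55.1 and 103, and Pi16, dim on both arrays, 32.1 and 60.5. The summed intensity of the 42 genes was 12561 and 24381, a ratio of 1.94. The part of muscle or fibroblast content in the higher matrix intensities was not tested.

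Markers of further cell types were as follows. Of 7 pericyte markers 2 were past 1.5-fold (Cspg4, 1.05, and Kcnj8, 0.96), with a median of 0.46 and sums of 3582 on the control and 4786 on the psyllium array. Of 9 mesothelial markers 4 were past it, with a median of 0.53 and sums of 422 and 594, and 5 of the 9 were dim on both arrays. Upk1b and Upk3b, the leading ones past the intensity line, differed by 0.90 and 0.66, and the dim Bnc1 and Wt1 by 0.69 and 0.61. Of 9 macrophage markers 2 were past it (Mrc1, 1.22, and Cd163, 0.78), with a median of 0.40 and sums of 991 and 1362. Of 8 skeletal muscle markers 3 were past it and 5 dim on both arrays, and the median was 0.35. Their sums were 436 and 734, Acta1 and Ckm differed by 1.59 and 0.80, the dim Myh4 by 0.70 and the dim Myl1 by -0.57, and 3 of the 8 differences were negative.

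The other marker lists held at most 1 gene past 1.5-fold. The 14 endothelial markers, 0 past 1.5-fold either way, had a median of 0.00 and sums of 1616 on the control and 1735 on the psyllium array. Cdh5 and Pecam1 differed by 0.18 and 0.34, Kdr and Tek by -0.10 and -0.11, and 6 of the 14 differences were negative. All 14 epithelial markers had negative differences, none past 1.5-fold, with a median of -0.27 and sums of 28202 and 24124. These ran from -0.49 (Cdx2) to -0.01 (Krt18), and Krt8 and Lgals4, the 2 brightest, differed by -0.03 and -0.18. The 7 adipocyte markers had a median of 0.22, none past 1.5-fold, and sums of 669 and 758, with Fabp4 at 0.26, Plin4 at 0.34 and Cidec, the other one past the intensity line, at -0.44. The 6 neuron and glia markers, 0 past 1.5-fold, had a median of -0.11 and sums of 505 and 418, with Snap25 at -0.52 and Uchl1 at -0.03. Tendon and cartilage markers, a check because Cilp, Comp and Aspn are known from such tissue, had a median of 0.11. Of these 10, 1 (Hapln1) was lower and 0 were higher, 7 were dim on both arrays, and the sums were 459 and 466. No marker is listed at 0 on either array, which does not show detection. The lowest intensity of any probe set was 1.92 on the control and 1.76 on the psyllium array.

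**Figure D5:**
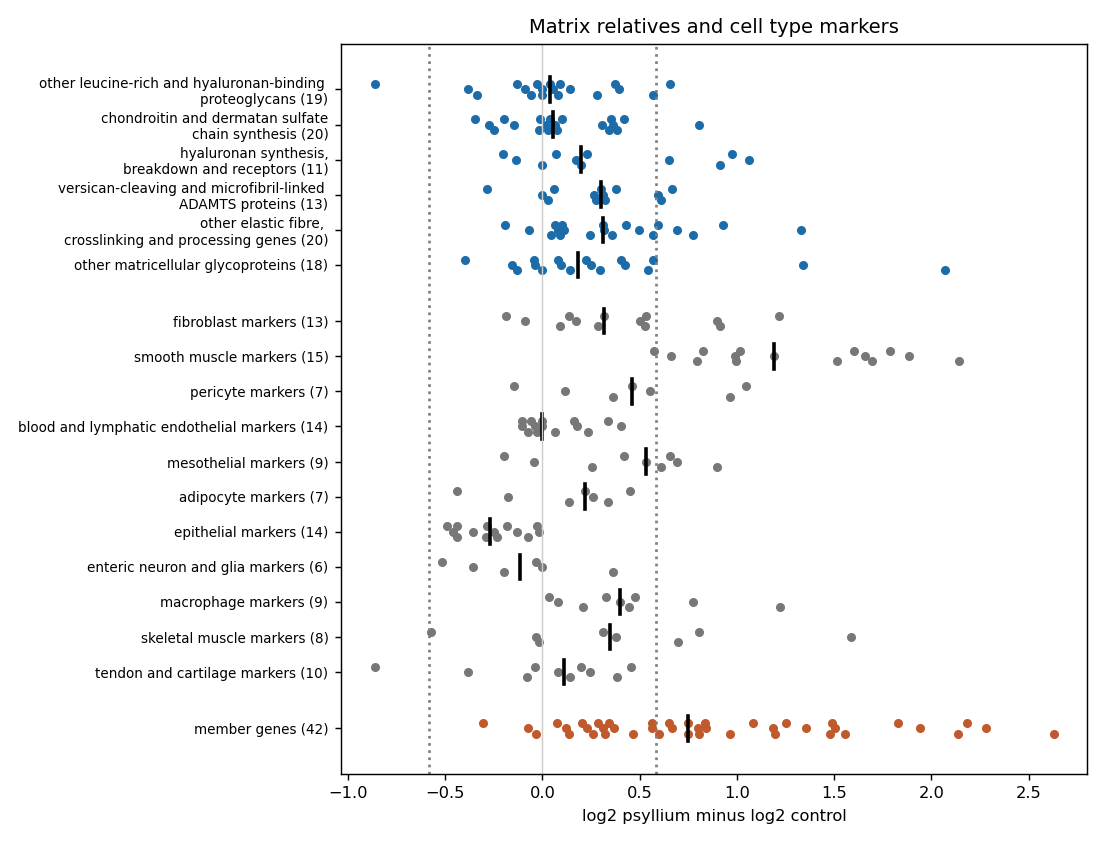
Difference (log2 psyllium minus log2 control, 1 array per diet) of each gene of the matrix relatives (blue), the cell type markers (grey) and the 42 genes (orange), with list medians as black bars and the number of measured genes in brackets. Dotted lines mark 1.5-fold either way. Smooth muscle markers (median 1.19) and the 42 genes (0.75) lie to the right, epithelial markers (-0.27) to the left.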

How the data were processed

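Total RNA from mouse colon was hybridised to 2 whole-transcript arrays, 1 per diet. The authors deposited 1 normalised intensity per probe set, not in log form. The submitters' processing notes name RMA and Affymetrix Expression Console without a version. The annotation and build are not given in the sources used here. If arrays were equalised by RMA, differences are relative to the bulk of transcripts. Intensities of the 41345 probe sets ran from 1.92 to 13675 (control) and from 1.76 to 13841 (psyllium), and the number of arrays limits the precision.

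Probe sets naming 1 gene (23521, of which 23328 matched a RefSeq gene number of GRCm38.p6) gave 22180 genes, each read from the probe set with the highest mean log2. A further 1814 name several genes and 16010 none here. Differences were taken as log2 with no pseudocount, using Python 3.11.15 and pandas 2.3.3. A run on simulated data with 1 probe set per gene checked only the arithmetic of the differences, not the choice of probe set or the naming of genes. No test across samples was possible. Every measured gene of the list is reported; of other lists, the text names up to 3 genes past the intensity line that differ most, if by 1.5-fold or more, or otherwise the 2 brightest, and others were named after their values were seen. The members and lists were chosen with earlier results of these data known. Alternatives were median centring, further quantile normalisation, removal of a lowess trend (fraction 0.3), the mean of probe sets, a pseudocount of 16, genes past the intensity line only and a 2-fold line.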

Additional observations from a re-analysis of the deposited data

Results flagged for a closer look

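Some probe sets were not used because they name another gene besides the one on the list. Both probe sets that name Loxl2, a lysyl oxidase relative, together with Gm21451 were higher on the psyllium array. The first read 105 on the control and 349 on the psyllium array, a difference of 1.74, and the second 104 and 256, a difference of 1.29. The probes cannot tell the pair of genes apart, so no value is given to Loxl2 alone. An unused probe set that names Ltbp2 together with D030025P21Rik was not higher. It was dim on both arrays, at 35.5 on the control and 32.7 on the psyllium array, a difference of -0.12.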

How the results depend on the processing

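No paired analysis was possible because each diet has 1 array and the labels give no replicate numbers. A difference or median was taken as shifted when it moved by more than 0.17, the median gap between probe sets of the same gene over 332 genes. The count of 25 genes at least 1.5-fold higher was 15 at 2-fold and lay between 23 and 26 under the other alternatives, while the count of lower genes stayed at 0. Thbs1 left the count with median centring, Thbs1 and Fbln5 left it with the pseudocount of 16, and Prelp entered it with quantile normalisation or the trend removed. The elastic microfibril median was 0.75 over genes past the intensity line only, a filter that favours genes high on 1 array. No other class median shifted by more than 0.17, and no direction of a gene past 1.5-fold was reversed. With the pseudocount the differences of the 7 genes with dim control values were smaller: 2.09 for Cilp, 1.92 for Mfap5, 1.88 for Vcan, 1.53 for Lox, 1.35 for Loxl1, 1.29 for Eln and 1.16 for Mfap4. The mean of probe sets gave 0.37 for Prelp. Centring moved the median of all genes to -0.05 and turned the split of all genes past 1.5-fold from 759 higher and 622 lower to 624 and 756. The matrix relatives past 1.5-fold higher numbered between 13 and 16. Signal over background limits the 7 genes dim on both arrays.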
